A study of Mus musculus with 6 samples.

Results

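Classical cadherins are calcium-dependent adhesion proteins that join a cell to its neighbours, and 10 cadherin genes, *Cdh1*, *Cdh2*, *Cdh4*, *Cdh6*, *Cdh8*, *Cdh10*, *Cdh11*, *Cdh13*, *Cdh20* and *Cdh22*, were followed in cultured mouse neural stem cells (NSCs). They were taken by gene name from a table of 53379 genes, and each name had a row of its own. The NSCs came from the cortex of E14.5 *Tbl1xr1* flox/flox embryos and grew with bFGF and EGF. They carried either a GFP lentivirus (control, replicates 1, 1_1 and 2) or a Cre-GFP lentivirus meant to delete the floxed exon (replicates 2, 2_2 and 3, the Cre-labelled libraries), and the study sorted GFP+ cells. All 6 libraries share the floxed allele and a virus. The labels name no embryo of origin for a culture and leave unsaid whether replicates 1 and 1_1, or 2 and 2_2, share a culture, so p-values measure the spread between these libraries only.

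In each classical cadherin the part outside the cell binds cadherins on the next cell, and the tail inside the cell holds p120-catenin and β-catenin, through which α-catenin reaches the actin cytoskeleton. Type I members such as *Cdh1* (E-cadherin), *Cdh2* (N-cadherin) and *Cdh4* (R-cadherin) bind strongly to their own kind, and N-cadherin is the usual cadherin of the apical junctions of the neural epithelium. Type II members, here *Cdh6*, *Cdh8*, *Cdh10*, *Cdh11*, *Cdh20* and *Cdh22*, mark particular regions and cell groups of the developing brain. *Cdh13* (T-cadherin) is an atypical relative that is tied to the membrane by a lipid anchor and lacks the catenin-binding tail.

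The values are normalized counts, which are the reads of a gene divided by 1 size factor per library. Dividing each value by what 1 read is worth in its library gave whole numbers, with a largest deviation of 5.77e-05, so reads could be recovered. The libraries held from 7510615 to 14828100 reads on genes, and the Cre-labelled group was the deeper, its median being 12210170 against 7762821. *Tbl1xr1* itself was not lower in the Cre-labelled libraries, where it had 3774, 3463 and 2905 normalized counts (replicates 2, 2_2 and 3) against 2522, 2190 and 2721 in control (replicates 1, 1_1 and 2). The means were 3381 ± 440 and 2477 ± 268 (SD, n = 3 each), a log2 fold change of 0.45 with an adjusted p of 0.06 by limma. The groups did not overlap, every Cre-labelled library being the higher. At an adjusted p under 0.05, 2 of 16 alternatives (DESeq2, and limma without Cre replicate 3) called the gene as higher. This count covers the whole gene and does not test the floxed exon, so every direction refers to the label. The study itself reports PCR genotyping of its sorted NSCs, and a loss of *Tbl1xr1* mRNA by RT-qPCR and of the protein by Western blot. All 10 listed NSC markers, among them *Sox2*, *Nes*, *Vim* and *Fabp7*, had counts high enough to be tested.

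Among the 8 cadherins that could be tested, *Cdh6* rose about 5.74-fold in the Cre-labelled libraries, while *Cdh4* and *Cdh13* fell to 0.715 and 0.753 of the control level. The other 5 tested members, *Cdh2*, *Cdh10*, *Cdh11*, *Cdh20* and *Cdh22*, did not pass the threshold. *Cdh1* had at most 2 reads in any library and *Cdh8* had none. The test was limma on log2(normalized count + 1) for genes with a mean of at least 10, with Benjamini-Hochberg adjustment over 14840 genes and a threshold of 0.05. By this rule 9.96% of all tested genes were called, 4.74% as higher and 5.22% as lower, beside 3 of the 8 tested cadherins. For 4 of the 8 the groups had no overlapping values, as was so for 30.3% of all tested genes. On the recovered reads edgeR, which called 9.99% of all tested genes, and DESeq2, which called 11.8%, both called the same 3 members. In bulk libraries a change in the number of cells of a type and a change in RNA per cell cannot be told apart. Because the filter acts on the mean of the 6 libraries, a gene with low counts can enter through the group where it is higher, as *Cdh11* did, so these counts describe the members that were tested and not all 10.

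**Figure D1:**
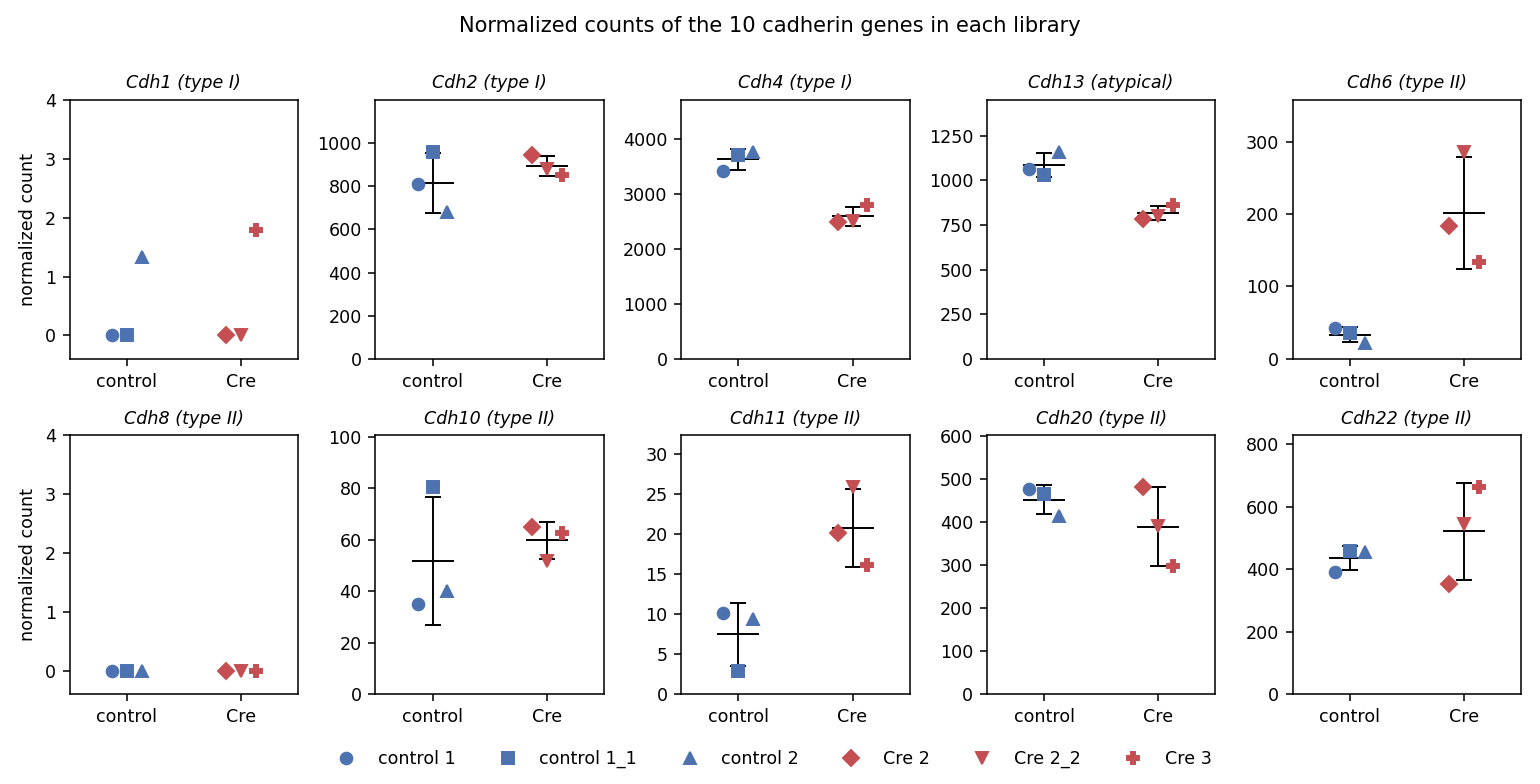
Normalized counts of the 10 cadherin genes (y axis, a separate linear scale for each gene) in the 3 control libraries (blue) and the 3 Cre-labelled libraries (red), with a different symbol for each library; the black lines are group means ± SD, left out for *Cdh1* and *Cdh8*. The groups do not overlap for *Cdh4*, *Cdh13*, *Cdh6* and *Cdh11*, while *Cdh8* sits at 0 in every library.

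Among the type I members, *Cdh4* encodes R-cadherin, which is found in parts of the embryonic forebrain and retina. Its normalized counts were 3418, 3707 and 3769 in the control libraries (replicates 1, 1_1 and 2) and 2487, 2506 and 2796 in Cre replicates 2, 2_2 and 3. Every Cre-labelled library was below every control library, and the distance between the groups was wider than the range within either. The means were 3631 ± 187 and 2596 ± 173 (SD, n = 3 each), a log2 fold change of -0.48 ± 0.11 (SE), with an adjusted p of 0.021 by limma. The value rests on many reads, at least 2534 in each library. The call was lost in 4 of the 6 fits that left out a library, since without control replicate 1, 1_1 or 2 the adjusted p of limma was 0.0722, 0.0815 and 0.0974, and without Cre replicate 2_2 it was 0.0917. It was 0.0712 with control replicates 1 and 1_1 averaged. In each of these fits the log2 fold change was between -0.53 and -0.46.

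*Cdh2* encodes N-cadherin. It had 810, 960 and 680 normalized counts in the control libraries (replicates 1, 1_1 and 2) and 943, 882 and 852 in Cre replicates 2, 2_2 and 3. The control range enclosed all the Cre-labelled libraries. The log2 fold change was 0.14 ± 0.14 (SE), with an adjusted p of 0.585 by limma, and its 95% interval, as a ratio of Cre to control, ran from 0.889 to 1.37. A difference in *Cdh2* was therefore not detectable within these bounds.

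*Cdh1* encodes E-cadherin, the cadherin of most epithelia. It had 1 read in control replicate 2 and 2 reads in Cre replicate 3, and none in the other 4 libraries. Both groups were thus under the floor of 3 reads per library, and no fold is given. Of the factors known to repress *Cdh1*, the genes *Snai1* and *Twist1* had no read in any library, while *Zeb1* and *Zeb2* were well expressed, with means of 4422 and 875 normalized counts in control and 4688 and 904 in the Cre-labelled libraries. Neither differed at the threshold (log2 fold changes 0.08 and 0.04, limma adjusted p = 0.708 and 0.892). *Tcf3*, which encodes the E-box-binding factor E2A, had 966, 1205 and 791 normalized counts in control and 671, 680 and 692 in the Cre-labelled libraries. The groups did not overlap, with a log2 fold change of -0.51 ± 0.15 (SE), and its limma adjusted p was 0.0553, whereas edgeR and DESeq2 on the recovered reads both called it.

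*Cdh13* was the only atypical member. Its normalized counts were 1062, 1030 and 1159 in the control libraries (replicates 1, 1_1 and 2) and 786, 799 and 860 in Cre replicates 2, 2_2 and 3. The groups did not overlap, as for *Cdh4*. The means were 1084 ± 67.3 and 815 ± 39.3 (SD, n = 3 each), a log2 fold change of -0.41 ± 0.12 (SE), with an adjusted p of 0.0467 by limma. This call lay close to the threshold, and 8 of 16 alternatives kept it. With the values scaled to the total count the adjusted p was 0.0597, and without control replicate 1, 1_1 or 2 or Cre replicate 2_2 it was 0.157, 0.0951, 0.171 and 0.139.

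Among the type II members, *Cdh6* (K-cadherin), a marker of boundaries in the embryonic forebrain and of the kidney, had the widest difference. Its normalized counts were 43.1, 35.1 and 22.7 in the control libraries (replicates 1, 1_1 and 2) and 183, 286 and 134 in Cre replicates 2, 2_2 and 3. The lowest Cre-labelled library was well above the highest control library. The reads behind these values were 47, 24 and 17 in control and 264, 332 and 150 in the Cre-labelled libraries. The means were 33.6 ± 10.3 and 201 ± 77.4 (SD, n = 3 each), a log2 fold change of 2.52 ± 0.31 (SE), with an adjusted p of 0.000773 by limma, and 99.5% of the tested genes had a smaller change in either direction. The 95% interval of the fold ran from 3.57 to 9.23. The Cre-labelled libraries differed among themselves, with replicate 2_2 highest and replicate 3 lowest.

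*Cdh11* (OB-cadherin), known from mesenchyme and bone as well as brain, had 10.1, 2.93 and 9.34 normalized counts in the control libraries (replicates 1, 1_1 and 2), from 11, 2 and 7 reads. In Cre replicates 2, 2_2 and 3 it had 20.1, 25.8 and 16.1 normalized counts, from 29, 30 and 18 reads. The groups did not overlap, and the log2 fold change was 1.48 ± 0.51 (SE), but the limma adjusted p was 0.0919 and none of the 15 alternative fits that could test the gene brought it under 0.05. With so few reads the size of the difference is poorly determined, its 95% interval running from 1.29-fold to 6.00-fold. A summed list of fibroblast markers was low, at 285 to 329 normalized counts in control and 192 to 309 in the Cre-labelled libraries. *Foxc1* made up most of it, and *Col1a2* and *Pdgfrb* had no read in any library. *Col1a1* had no read in control or in Cre replicate 2, 9 reads in Cre replicate 2_2 and 7 in Cre replicate 3, *Lum* had means of 3.59 and 6.43 normalized counts in control and the Cre-labelled libraries, and *Dcn* had 1 read in all, in Cre replicate 3. The part of such cells in the *Cdh11* values was not tested.

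*Cdh20* and *Cdh22* were the type II members with the most reads, and neither passed the threshold. *Cdh20* had 476, 465 and 413 normalized counts in the control libraries (replicates 1, 1_1 and 2) and 481, 389 and 296 in Cre replicates 2, 2_2 and 3. *Cdh22* had 392, 459 and 456 in the control libraries and 354, 547 and 663 in the Cre-labelled libraries, in the same order. In both genes the Cre-labelled libraries spread over more than the control range. Among those 3 libraries, replicate 2 was the highest for *Cdh20* and the lowest for *Cdh22*, and replicate 3 was the reverse. The log2 fold change was -0.24 ± 0.18 (SE, limma adjusted p = 0.43) for *Cdh20* and 0.21 ± 0.20 (SE, limma adjusted p = 0.561) for *Cdh22*. The 95% intervals of the ratio of Cre to control were 0.648 to 1.11 and 0.850 to 1.58. Both values turned on single libraries. Without Cre replicate 2 the log2 fold change was 0.47 for *Cdh22* (limma adjusted p = 0.0443) and -0.41 for *Cdh20* (0.0976), and without Cre replicate 3 it was 0.02 (0.965) and -0.06 (0.84).

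*Cdh10* had 34.9, 80.5 and 40.0 normalized counts in the control libraries (replicates 1, 1_1 and 2) and 65.1, 51.7 and 62.7 in Cre replicates 2, 2_2 and 3. The control libraries were the more variable group, and control replicate 1_1 was above all Cre-labelled libraries. The log2 fold change was 0.30 ± 0.32 (SE), with an adjusted p of 0.612 by limma and a 95% interval of the ratio from 0.757 to 1.99. *Cdh8*, a type II cadherin of cortical and striatal neurons, had 0 reads in all 6 libraries. At these depths a count of 0 allows up to 3 reads, which is 0.202 to 0.399 CPM by the library totals, and this limit covers counting error only.

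**Figure D2:**
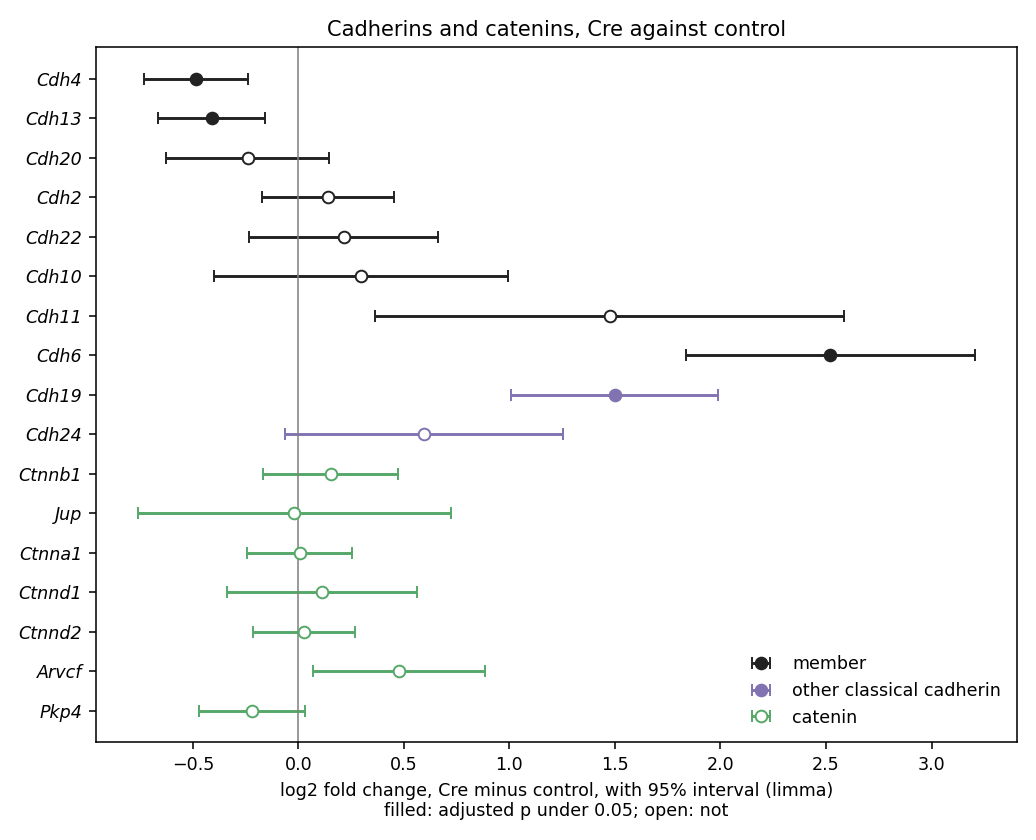
Log2 fold change of the Cre-labelled libraries against control (x axis) with its 95% limma interval for the 8 tested members (black), the other classical cadherins (purple) and the catenins (green); filled points have an adjusted p under 0.05. The filled points of *Cdh6* at 2.52 and *Cdh19* at 1.498 lie far to the right, as does the open point of *Cdh11* at 1.48. The filled points of *Cdh4* at -0.48 and *Cdh13* at -0.41 lie to the left, and no catenin point is filled.

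The set of RefSeq promoters used here (GRCm38.p6) held start sites for 5 of the 10 genes. It had no entry for *Cdh1*, *Cdh2*, *Cdh4*, *Cdh11* or *Cdh13*. The 250 bases before the start are shown for 3 type II genes that differ in their data: *Cdh6*, which rose (chr15:13173676-13173925, minus strand), *Cdh10*, which is on the same chromosome and did not pass (chr15:18820079-18820328, plus strand), and *Cdh8*, which had no read (chr8:99416472-99416721, minus strand). The sequences are written 5′ to 3′ on the strand of the gene. Capitals mark the GC box GGGCGG and the CCAAT box, searched on both strands.

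*Cdh6*: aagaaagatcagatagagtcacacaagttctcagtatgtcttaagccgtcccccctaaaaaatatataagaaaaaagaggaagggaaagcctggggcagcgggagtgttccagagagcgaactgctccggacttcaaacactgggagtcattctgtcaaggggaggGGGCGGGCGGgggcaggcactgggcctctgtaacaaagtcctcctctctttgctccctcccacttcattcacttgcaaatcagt

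*Cdh10*: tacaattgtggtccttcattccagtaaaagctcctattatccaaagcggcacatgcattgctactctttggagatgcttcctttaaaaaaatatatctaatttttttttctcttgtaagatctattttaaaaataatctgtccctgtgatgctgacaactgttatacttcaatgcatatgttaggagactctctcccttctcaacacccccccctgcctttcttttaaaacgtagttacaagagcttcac

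*Cdh8*: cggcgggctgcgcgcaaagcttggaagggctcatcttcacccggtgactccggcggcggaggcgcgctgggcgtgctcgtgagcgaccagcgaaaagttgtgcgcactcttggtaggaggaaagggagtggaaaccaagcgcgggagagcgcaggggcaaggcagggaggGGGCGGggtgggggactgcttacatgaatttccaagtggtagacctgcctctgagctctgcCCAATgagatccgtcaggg

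The window of *Cdh6* held 2 overlapping GC boxes and 6 CpG dinucleotides, the same CpG count as the median of all 32851 RefSeq promoter windows of this length. The window of *Cdh10* held 2 CpG and no GC box, and that of *Cdh8* held 20 CpG, 1 GC box and 1 CCAAT box. The unread gene *Cdh8* had more CpG in this window than *Cdh6*, which rose, and a link between CpG and the counts was not tested. A GC box was found in 32.7% of all windows and a CCAAT box in 33.8%. Neither the Snail and Zeb site CACCTG, found in 17.2% of all windows, nor TATAAA, found in 12.4%, was present in the windows of *Cdh6*, *Cdh8*, *Cdh10*, *Cdh20* or *Cdh22*. *Cdh20* held 10 CpG and *Cdh22* 30. The RefSeq gene records of all 3 reach upstream beyond these start sites, to 13176407 for *Cdh6* and 18818869 for *Cdh10* on chromosome 15 and to 99417666 for *Cdh8* on chromosome 8.

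Levels can be set side by side between genes only per length, for which the normalized count was divided by the kb of exon in the GENCODE M1 annotation. On this scale *Cdh4* led in both groups, with 503 ± 25.9 per kb in control and 360 ± 24.0 in the Cre-labelled libraries (SD, n = 3 each), and its range did not overlap that of the next gene in either. In control, *Cdh22*, *Cdh20*, *Cdh2* and *Cdh13* followed at 118, 113, 101 and 97.1 per kb, and neighbours in this order overlapped in range. *Cdh10* at 14.6 and *Cdh6* at 12.8 also overlapped each other, and *Cdh11* at 1.77 was below both. In the Cre-labelled libraries, *Cdh6* reached 76.4 per kb of exon, a level whose range on this scale overlapped those of *Cdh20* at 96.9 and *Cdh13* at 73.1.

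The summed level of the 10 genes was 961 ± 39.6 per kb in control and 879 ± 34.3 in the Cre-labelled libraries, with ranges of 922 to 1002 and 840 to 902. The share of *Cdh4* in this sum was 51.3% to 54.4% in control and 38.5% to 43.2% in the Cre-labelled libraries. The share of *Cdh6* was 0.898% to 1.78% in control and 5.69% to 12.0% in the Cre-labelled libraries. Neither range overlapped between the groups, and the same held for the shares of *Cdh11* and *Cdh13*. The share of *Cdh13* was 9.22% to 10.8% in control and 7.94% to 8.60% in the Cre-labelled libraries. All shares come from the same counts as the differences above. The share of *Cdh22* was 11.5% to 12.8% in control and averaged 15.9% in the Cre-labelled libraries, with 11.4% in Cre replicate 2, 16.4% in replicate 2_2 and 20% in replicate 3. These levels depend on the lengths, which come from another annotation than the one used for counting. The *Cdh6* model has 1 transcript of 2632 bases with a coding part of 2370, whereas that of *Cdh13* has 11153 bases with 2151 coding. Per kb of coding sequence, *Cdh13* was second in control, at 504 against 1264 for *Cdh4*, and the mean share of *Cdh6* was 0.577% in control and 4.04% in the Cre-labelled libraries. On this coding scale the Cre-labelled mean of *Cdh6* was 84.8, below 162 for *Cdh20* and 379 for *Cdh13*. The nearness of *Cdh6* to these genes per kb of exon thus depends on the lengths used.

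**Figure D3:**
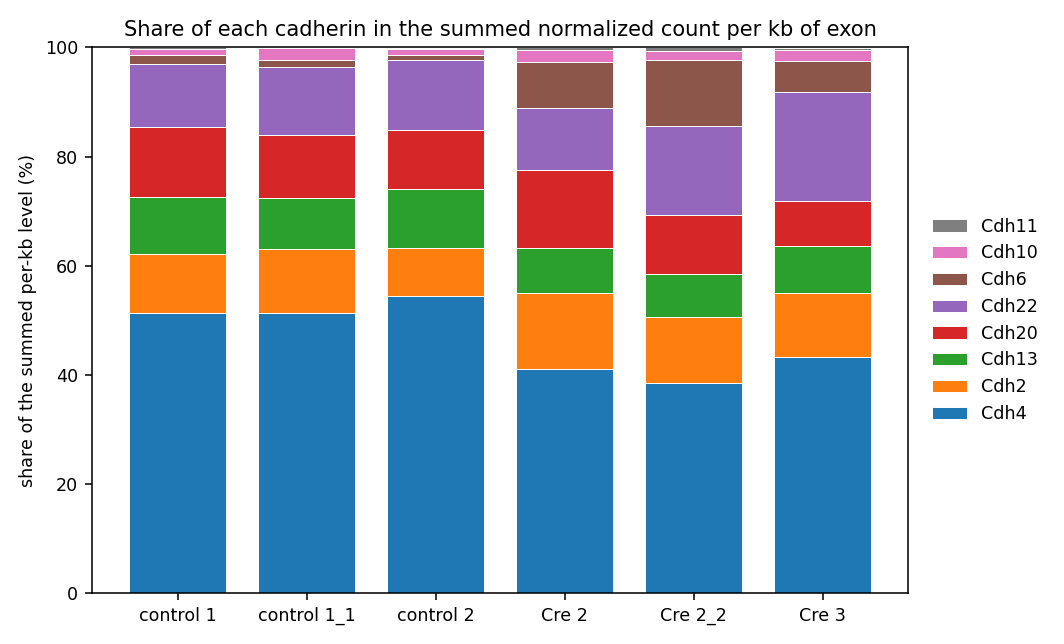
Share of each cadherin (y axis, percent) in the summed normalized count per kb of exon in each library; *Cdh1* and *Cdh8*, at or near 0, are not drawn. The *Cdh4* part shrinks from 51.3% to 54.4% in the control libraries to 38.5% to 43.2% in the Cre-labelled libraries, and the *Cdh6* part widens to between 5.69% and 12.0%.

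Of the 9 other classical cadherins, 2 had enough counts to be tested. *Cdh19*, a type II gene known from glial precursors and Schwann cell precursors, had 46.8, 65.8 and 54.7 normalized counts in the control libraries (replicates 1, 1_1 and 2) and 131, 193 and 156 in Cre replicates 2, 2_2 and 3. All Cre-labelled libraries were above all control libraries, and the log2 fold change was 1.498 ± 0.22 (SE, limma adjusted p = 0.0022). As for *Cdh6*, Cre replicate 2_2 was the highest, but the lowest was Cre replicate 2 for *Cdh19* and Cre replicate 3 for *Cdh6*. *Cdh24* had a log2 fold change of 0.60 ± 0.30 (SE), with an adjusted p of 0.243 by limma. The other 7, *Cdh3*, *Cdh5*, *Cdh7*, *Cdh9*, *Cdh12*, *Cdh15* and *Cdh18*, had at most 3 reads in any library.

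The catenins, which tie the cadherin tail to the cytoskeleton, showed no call. None of the 7 tested of 9 listed passed limma's adjusted p, edgeR or DESeq2, and 1, *Arvcf*, had an unadjusted p under 0.05. Of all tested genes these tests called 9.96%, 9.99% and 11.8%, so no call in a list this short is near the share. The groups did not overlap for 2 of the 7, *Arvcf* and *Pkp4*, beside 30.3% of all tested genes. The median log2 fold change was 0.03. *Ctnnb1* (β-catenin) had a log2 fold change of 0.15 ± 0.14 (SE, limma adjusted p = 0.559), *Ctnna1* (α-catenin) of 0.01 ± 0.11 (SE, limma adjusted p = 0.984), and *Jup* (plakoglobin) of -0.02 ± 0.34 (SE, limma adjusted p = 0.979). In the p120 family the values were 0.11 for *Ctnnd1*, 0.03 for *Ctnnd2*, 0.48 for *Arvcf* and -0.22 for *Pkp4*, with limma adjusted p = 0.782, 0.909, 0.132 and 0.263. The values of *Jup*, *Ctnna1*, *Ctnnd1* and *Ctnnd2* changed sign under some alternatives to the processing, so no direction is given for them. *Ctnna2*, the α-catenin of neurons, and *Ctnna3* were too low to test.

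Other parts of the junction were tested as well. Of 11 tested junction partners, among them *Vcl* (vinculin), *Afdn* (afadin) and the nectins *Nectin1* to *Nectin3*, none passed limma's threshold, edgeR or DESeq2, and none had an unadjusted p under 0.05, with log2 fold changes from -0.41 to 0.31. The 6 genes of cadherin processing and turnover, among them *Furin*, which cleaves the precursor, and *Adam10*, which sheds the outer part, also had none past limma's threshold, edgeR or DESeq2 and none with an unadjusted p under 0.05, with log2 fold changes from -0.20 to 0.48. *Adam15*, 1 of these 6, had 796, 834 and 1590 normalized counts in Cre replicates 2, 2_2 and 3 and was called as lower without Cre replicate 3. The limma test called 0 of the 3 tested repressors of *Cdh1*, and 1 of them, *Tcf3*, had an unadjusted p under 0.05. With 9.96% of all tested genes called by limma, 0 calls in lists this short is near the share. The groups did not overlap for 3 of the 11 junction partners, 0 of the 6 processing genes and 1 of the 3 repressors, beside 30.3% of all tested genes.

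Markers of glial lineages were higher in the same libraries as *Cdh6* and *Cdh19*. Of all tested genes limma called 4.74% as higher and 5.22% as lower, the shares to set beside each marker list here. Of 7 listed astrocyte markers 6 were tested, and 3 were called as higher and none as lower. These were *S100b*, *Aqp4* and *Slc1a2*, with log2 fold changes of 3.10, 1.64 and 1.16, while *Aldh1l1* had -1.65 (limma adjusted p = 0.065). The list had a summed level of 3111 to 3411 normalized counts in control and 5590 to 6568 in the Cre-labelled libraries, and *Gfap* was near 0, at means of 1.82 and 4.73. *S100b* alone had means of 238 in control and 2064 in the Cre-labelled libraries. Of 7 oligodendrocyte lineage markers 6 were tested, and 3 were called as higher (*Olig2*, *Pdgfra* and *Cspg4*, with log2 fold changes of 0.71, 0.86 and 0.64). The summed level of this list was 12483 to 14404 in control and 17232 to 19636 in the Cre-labelled libraries. The part of these glial lineages in the cadherin differences was not tested. Of 9 neuron markers 7 were tested, and 1 was called as higher (*Elavl4*, log2 fold change 2.32) and 1 as lower (*Gap43*, -0.76). Their summed levels were 17638 to 18683 in control and 15226 to 17196 in the Cre-labelled libraries, and *Stmn2* had no read. *Map2* and *Gap43* made up most of the neuron sum, with control means of 9210 and 8711. The next, *Elavl4*, had means of 96.6 in control and 479 in the Cre-labelled libraries. NSC markers summed to 38962 to 42730 in control and 39461 to 41481 in the Cre-labelled libraries, and 1 of 10, *Nes*, was called as lower (log2 fold change -0.85). This sum mixes directions, since 6 of the 10 had a positive and 4 a negative log2 fold change. Endothelial markers summed to at most 40.4 normalized counts and epithelial markers to at most 6.42. *Cldn5*, *Krt8* and *Krt18* had no read. Microglia markers summed to 157 to 202 in control and 163 to 266 in the Cre-labelled libraries, nearly all of it *Csf1r*, while *Aif1*, *Cx3cr1* and *Itgam* had at most 3 reads in any library.

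By position, 8 of these genes share a chromosome with another member (GRCm38.p6). These are *Cdh8*, *Cdh11*, *Cdh1* and *Cdh13* on mouse chromosome 8, *Cdh6* and *Cdh10* on 15 and *Cdh4* and *Cdh22* on 2. *Cdh20* lies on chromosome 1, and no position is given for *Cdh2*. The 3 called genes lie on different chromosomes. *Cdh6* (chr15:13028699-13176407) has *Drosha* as its nearest protein-coding neighbour on one side, 93.4 kb away, and *Drosha* had a log2 fold change of -0.40 ± 0.11 (SE), with an adjusted p of 0.0412 by limma. Its direction was opposite to that of *Cdh6*. The neighbour on the other side was *Cdh9*, 3552 kb away and almost without reads. *Cdh4* (chr2:179442423-179899377) has *Taf4* 12.8 kb away, whose log2 fold change was -0.09 ± 0.22 (SE, limma adjusted p = 0.837). *Cdh13* (chr8:118140017-119324929), whose gene spans 1185 kb, has *Hsbp1* 19.6 kb away, with a log2 fold change of 0.21 (limma adjusted p = 0.351). *Cdh11* lies between the unread genes *Cdh8* and *Cdh5*.

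The genes most like *Cdh4*, the member with the most reads, by Pearson correlation of the log2 values over the 6 libraries were *Cpsf1* (r = 0.998), *Jmjd6* (r = 0.997) and *Rims4* (r = 0.995), whose log2 fold changes were -0.50, -0.46 and -1.23. Those most like *Cdh6* were the unnamed gene ENSMUSG00000115555 (r = 0.999), *Qk* (r = 0.998) and *Nfat5* (r = 0.998), with 1.76, 0.42 and 0.51. The 6 points of each correlation fall into the study groups and share library depth and size factor, so the values describe a shared pattern between these libraries and no more.

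The differences were also computed under each alternative to the processing. *Cdh6* had a log2 fold change from 2.23 to 2.78 and passed in all 16 alternatives. *Cdh4* ranged from -0.54 to -0.45 and passed in 11 of 16, and *Cdh13* ranged from -0.45 to -0.36. The sign of each of the 8 tested members was the same in every one of these that tested it, but a fit with the replicate number as a block, added after seeing the data, turned those of *Cdh20* (0.0648) and *Cdh22* (-0.0522) and called *Cdh6* alone (3.28, limma adjusted p = 0.00649). An exact permutation test of 3 libraries against 3 (two-sided) gave p = 0.1 for *Cdh4*, *Cdh6*, *Cdh11* and *Cdh13*, the smallest value this design allows.

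**Figure D4:**
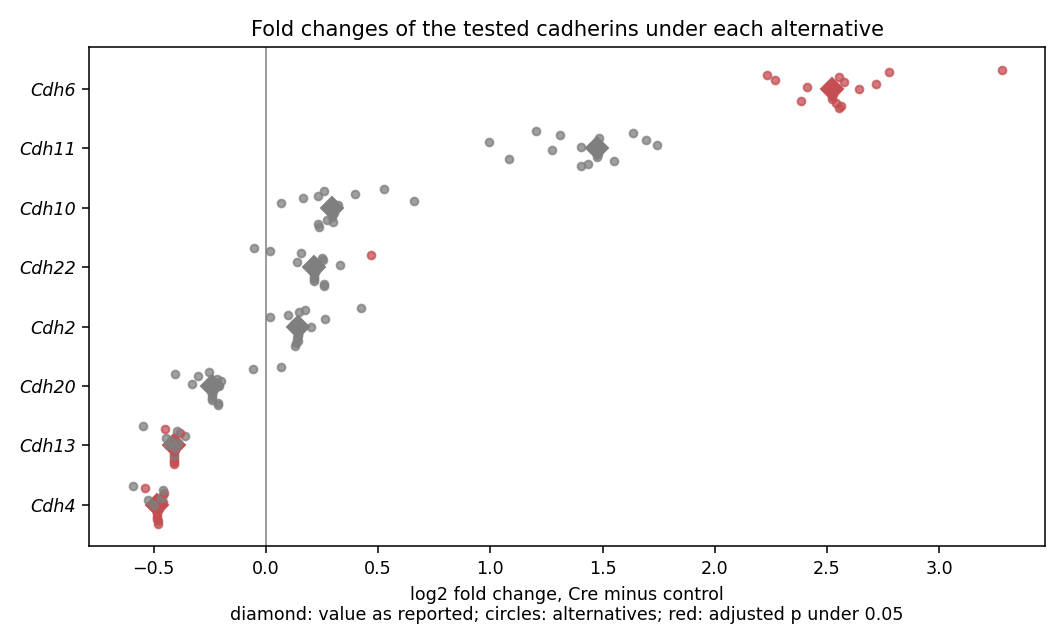
Log2 fold change of the Cre-labelled libraries against control (x axis) for the 8 tested cadherins, with the reported value as a diamond and each alternative, the blocked fit included, as a circle, red where the adjusted p is under 0.05. All *Cdh6* points are red and lie between 2.23 and 3.28, *Cdh4* and *Cdh13* mix red and grey points left of 0, and 1 *Cdh22* point is red, at 0.47.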

How the data were processed

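The 10 genes and all gene lists were chosen with earlier results of these data known. Groups came from the labels. TruSeq libraries were aligned with STAR 2.7 to mm10 per the submitters' processing notes, whereas the methods of the study name TopHat with mm9 and mm10, and DESeq2 was used in both. The counter, strand setting and annotation are not given in the sources used here. The authors deposited normalized counts, a signal per gene and library, from which reads were recovered. Columns of the authors' own comparison (log2 fold change, its standard error and test score, p-value and adjusted p-value) were deposited too and were not used. Of 53379 genes, 873 have no name and 1 lacks a value and was left out.

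limma 3.58.1 (trend) in R 4.3.3 tested log2(normalized count + 1) for genes with a mean of at least 10. Genes named were the members, each tested catenin and other classical cadherin, each listed gene past the threshold, and the 3 genes most correlated with *Cdh4* (most reads) and *Cdh6* (largest called change). Other listed genes and chromosomal neighbours named were chosen after their values were seen. Exon and coding lengths came from GENCODE M1, and positions and promoters from RefSeq GRCm38.p6. Alternatives were edgeR 4.0.16 and DESeq2 1.42.0 on recovered reads, pseudocounts of 0.5 and 5, no filter, a mean of at least 50, TMM, scaling to the total, averaging control 1 with 1_1 or Cre 2 with 2_2, a threshold of 0.1, and leaving out each library. A blocked fit on the replicate number was added after seeing the data. Counts out of 15 or 16 alternatives are at an adjusted p under 0.05, and leave out the threshold of 0.1 and the blocked fit. Reads differed by more than counting noise in every pair of a group, with chi-square per degree of freedom of 15.9 (control 1 and 1_1), 6.38 (1 and 2), 19.7 (1_1 and 2), 25.9 (Cre 2 and 2_2), 40.0 (2 and 3) and 17.8 (2_2 and 3). All 6 libraries were kept, though a shared culture cannot be told from these values.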

Additional observations from a re-analysis of the deposited data

How the results depend on the processing

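Of the 3 called members, *Cdh6* alone was called in every fit. Averaging control libraries 1 and 1_1 left 1 member and 661 of all tested genes past the threshold, and leaving out 1 library gave from 1 to 4 members and from 563 (without control replicate 1) to 2387 (without Cre replicate 2) genes, against 1478. Without control replicate 1_1 there were 708 genes, without control replicate 2 there were 642 and without Cre replicate 2_2 there were 735. In each of these fits, as without control replicate 1, *Cdh6* was the 1 member called. Both edgeR (1483 genes, 9.99%) and DESeq2 (1755 genes, 11.8%) called *Cdh4*, *Cdh6* and *Cdh13*. At an adjusted p under 0.1, 2380 genes passed, and *Cdh11* joined the members. *Cdh13* was lost without the filter, when scaled to the total and when Cre 2 and 2_2 were averaged. Among the cadherin partners, *Cdh19* was called in every fit but the blocked one. With *Tcf3* there were 2 under edgeR, DESeq2, scaling to the total and a threshold of 0.1, and leaving out 1 library gave from 1 to 3, the latter, with *Arvcf* and *Tcf3*, without Cre replicate 2. Without Cre replicate 3, *Adam15* joined *Cdh19*. The cause of these changes was not tested. The groups share a single replicate number, so a fit with the leading number as a replicate block, added after seeing the data, compares control replicate 2 with Cre replicates 2 and 2_2 on 2 residual degrees of freedom. It called 180 genes, 1 member (*Cdh6*) and 0 partners, with 2345 genes at an unadjusted p under 0.05, gave *Cdh4* -0.59 and *Cdh13* -0.55 (limma adjusted p = 0.133 and 0.169), and reversed *Cdh20* (0.0648) and *Cdh22* (-0.0522). No source says that a number marks shared cells. *Cdh11* rests on 2 to 11 reads in each control library.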
